A study of Mus musculus with 8 samples.

Results

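The 38 genes of the constitutive proteasome encode the 20S core, the 19S regulatory particle with its assembly chaperones, and the PA28 and PA200 activators, without the inducible subunits of the immunoproteasome. They were chosen by name: a member was any non-control probe whose gene name in the scanner files was one of the 38 symbols. Probes carried 37 of the 38 names, 72 probes of 56605 on the array, and all 37 genes were bright enough to be tested among 22509 genes. Psme2, the beta subunit of PA28, had no probe under its own name.

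The proteasome is the protease that degrades most short-lived and misfolded proteins of a cell once they are tagged with ubiquitin. Its barrel-shaped 20S core has outer rings of alpha subunits, which gate the entrance, around inner rings of beta subunits, which hold the cutting sites, and the 19S particle at either end binds ubiquitin chains, removes them, unfolds the substrate and threads it into the core. Its peptide products also feed MHC class I. Interferon induces subunits that take the places of the catalytic beta subunits, and it raises the PA28 activator.

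RNA came from CD11b+ cells, a fraction that holds microglia and other myeloid cells, isolated with magnetic beads from brains of male C57BL/6N mice aged 7 days. The LPS group was treated with lipopolysaccharide, a glycolipid on the surface of Gram-negative bacteria, and the saline group was injected with saline. Both were sampled at 24 h. The dose and route are not given in the sources used here. Each group had 4 tubes, every tube held the brains of 2 mice of the same treatment, and each tube gave 1 array, so n counts pools of mice and not single animals. The comparison addresses how brain immune cells of postnatal mice differ between LPS and saline.

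Between 58.6% and 63.2% of probes on the LPS arrays were well above background, with a median processed signal of 11.7 to 17.3, against 61.9% to 66% and 15.5 to 21.5 on the saline arrays. LPS replicate 3 had the highest median signal of the LPS arrays, as saline replicate 3 had of the saline arrays. With 4 arrays a group, their number limits how precisely each value is known. Microglial and myeloid markers had a mean log2 level of 6.83 to 7.03 on the LPS arrays and 7.03 to 7.29 on the saline arrays, and all 7 were well above background on the 4 LPS arrays. Of these 7, Itgam, the gene of CD11b, was higher after LPS (a change of 0.66 on the log2 scale), P2ry12 (-1.55) and Trem2 (-0.37) were lower, and 4 were not called. Markers used for other cells also gave signal, and whether other cells or the myeloid cells themselves supplied it was not tested. Monocyte markers rose in 4 of 5 genes, with mean levels of 1.35 to 2.03 on the LPS arrays and 0.16 to 0.5 on the saline arrays. Markers of dividing cells rose in 8 of 8 genes, with mean levels of 3.77 to 4.31 on the LPS arrays and 2.99 to 3.18 on the saline arrays. Astrocyte markers fell in 5 of 6 genes (0.07 to 0.49 on the LPS arrays, 0.91 to 1.19 on the saline arrays). Oligodendrocyte markers fell in 4 of 6 genes (median change -0.78), endothelial markers in 3 of 4 (-0.55) and neuron markers in 1 of 4 (-0.59). With scaling by array medians 4 astrocyte, 2 oligodendrocyte, 1 endothelial and 1 neuron gene fell. Of 8 neutrophil markers S100a8 (1.59) and S100a9 (1.38) rose and the others were not called. Of 5 lymphocyte markers tested 3 rose and 1 fell. Among all genes tested 27.8% were called higher and 21.5% lower. Cd3g and Cd8a, markers of T cells, were not among the genes tested. Every listed marker that was tested gave signal well above background on 4 or more of the 8 arrays, as the filter requires of any tested gene. The part of these cells in the results below was not tested, and in bulk RNA fewer cells of a type and less RNA per cell cannot be told apart.

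The constitutive proteasome genes rose together after LPS. All 37 measured genes were higher and 0 were lower (limma, Benjamini-Hochberg adjusted p under 0.05 over all 22509 genes), where 27.8% of all genes tested were called higher, 21.5% lower and 49.3% in either direction. The median change was 0.74 on the log2 scale, or 1.67-fold, against 0.02 for all genes, and the changes ran from 0.36 (Psmd8) to 1.13 (Psme1). The increases were of moderate size: 29 of 37 genes were called and at least 1.5-fold higher, which held for 12.2% of all genes, but 1 of 37, Psme1, passed 2-fold, where 3.58% of all genes did. The quartiles of the subunit changes were 0.6 and 0.86, and those of all genes -0.39 and 0.35. In the histogram of changes, the subunits form 1 narrow peak on the right flank of the distribution of all genes.

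**Figure D1:**
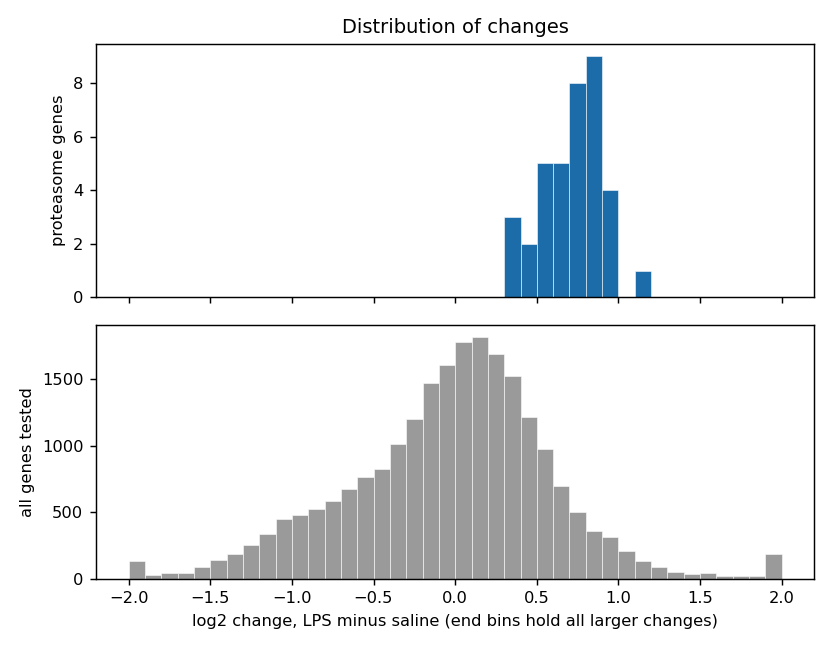
Number of genes (vertical axes) by log2 change, LPS minus saline (horizontal axis), for the 37 proteasome genes (upper panel) and all 22509 genes tested (lower panel), in bins of equal width with the end bins holding all larger changes. All 37 proteasome genes lie to the right of 0, between 0.36 and 1.13, while all genes centre on 0.02.

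The LPS and saline arrays did not overlap for 35 of 37 genes, all higher after LPS, where 25.8% of all genes had groups apart with LPS higher and 44.7% had groups apart in either direction. The genes with overlap were Psmd8 and Psmd10. Subunit probes were bright, and bright genes in general were called higher more often than genes at large. Among 5661 genes whose mean log2 signal lay between the 10th and 90th percentile of the subunits, 48% were called higher and 13.7% lower. Their median change was 0.25, and the subunits within that range are counted among them. That range was chosen after values were seen, and the part of probe brightness in the shared rise was not tested. The median change depended on how arrays were scaled, at 0.96 with scaling by array medians and 0.46 with quantile normalization. Set against the median of all genes it was 0.72 in the reported values and with scaling by array medians, and 0.46 with quantile normalization.

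The arrays differed in step. Relative to the mean of the saline arrays, the median of the 37 genes was 0.91, 0.8, 0.44 and 0.84 on LPS replicates 1 to 4, against 0.11, 0.06, -0.15 and -0.04 on saline replicates 1 to 4. LPS replicate 3 was the lowest LPS array for 37 of 37 genes and LPS replicate 1 the highest for 34. Saline replicate 3 was the lowest saline array for 29 of 37. The median of all genes tested was also lowest on these arrays, over a smaller range. It was 0.06, 0.05, 0.01 and 0.03 on LPS replicates 1 to 4, and 0.04, 0.04, -0.05 and -0.01 on saline replicates 1 to 4. For the subunits, the lowest array in each group was thus the one with the highest median signal. With array median signal as a covariate 33 of 37 genes were higher, against 18.4% of all genes, with a subunit median of 0.52. LPS replicate 3 and saline replicate 3 also had the highest neuron markers of their groups, at mean levels of 0.02 and 0.21. The same held for oligodendrocyte (-0.97 and -0.48) and endothelial markers (0.5 and 1.14). Astrocyte markers were highest on saline replicate 3 (1.19) but not on LPS replicate 3 (0.48, against 0.49 on LPS replicate 4). The part of these cells in the lower subunit values was not tested. Both arrays also lay in the same slide column, and each of the 4 columns held 1 LPS and 1 saline array. Within columns 1 to 4 the median difference, LPS minus saline, was 0.81, 0.72, 0.58 and 0.86. LPS stood above saline for 37 of 37 genes in every column. For the 35 genes whose groups did not overlap this follows from the gap between the groups and adds nothing to it. Of all genes, 25.8% had groups apart with LPS higher. An alternative without LPS replicate 3 and saline replicate 3 was chosen after seeing the data. In it 37 of 37 genes were higher, against 30.4% of all genes, with a subunit median of 0.82.

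**Figure D2:**
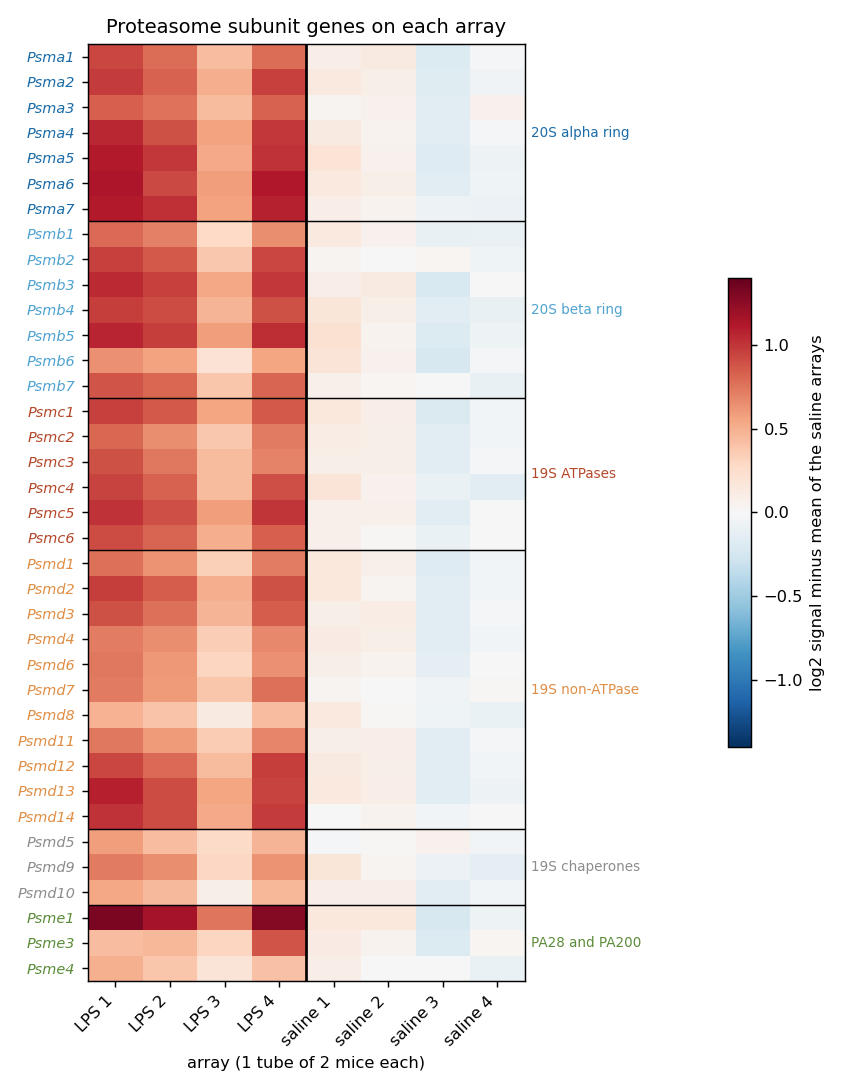
Log2 signal of each subunit gene (rows, grouped by role) on each array (columns, LPS left and saline right) minus the mean of the 4 saline arrays, from blue (lower) to red (higher). Every LPS column is red for nearly all genes, with LPS 3 the palest at a median of 0.44, and the saline columns stay near 0.

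The alpha ring forms the outer face of the core, where the tails of the ATPases dock and open the gate. All 7 of its genes rose, with a median of 0.88 (1.83-fold). Psma7, the largest increase of the ring, had log2 levels relative to each array's 75th percentile of 5.68, 5.59, 5.13 and 5.65 on the LPS arrays, against 4.66, 4.62, 4.5 and 4.49 on the saline arrays. The lowest LPS array stood above the highest saline array, so the groups did not overlap. The means were 5.51 ± 0.26 after LPS and 4.57 ± 0.09 after saline (SD, n = 4 each), a change of 0.95 ± 0.13 (standard error, limma adjusted p = 0.0012). Psma6 rose by 0.94, Psma5 by 0.91, Psma4 by 0.88 and Psma2 by 0.82. The smallest changes of the ring were in Psma1 (0.73 ± 0.12, limma adjusted p = 0.00243) and Psma3 (0.72 ± 0.11, limma adjusted p = 0.00149), which still came to 1.66-fold and 1.65-fold.

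The beta ring cuts the substrate. All 7 genes rose, with a median of 0.78 (1.72-fold), but they spread more widely than the alpha genes, from 0.49 in Psmb6 to 0.91 in Psmb5. Of the 7, only Psmb5, Psmb6 and Psmb7 encode active sites. Psmb5 carries the chymotrypsin-like site, which is the main target of proteasome inhibitor drugs. Its probe lies on the minus strand at chr14:55233161-55233220 (mm9, the build of the file headers). Its sequence, shown because the constitutive catalytic subunit with the largest increase was measured by this 1 probe, is given 5′ to 3′ as the files hold it.
Psmb5 probe: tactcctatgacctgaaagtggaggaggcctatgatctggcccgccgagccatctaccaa

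Psmb5 had log2 levels of 4.65, 4.55, 4.16 and 4.61 on the LPS arrays, against 3.79, 3.63, 3.39 and 3.51 on the saline arrays. Every LPS array was above every saline array. The means were 4.49 ± 0.22 after LPS and 3.58 ± 0.17 after saline (SD, n = 4 each), a change of 0.91 ± 0.13 or 1.88-fold (limma adjusted p = 0.00147). Psmb7, the trypsin-like subunit, had 3.71, 3.64, 3.22 and 3.65 on the LPS arrays, against 2.91, 2.86, 2.84 and 2.73 on the saline arrays. Its groups did not overlap, although LPS replicate 3 lay closer to the saline arrays than to the other LPS arrays. The means were 3.56 ± 0.23 after LPS and 2.83 ± 0.08 after saline (SD, n = 4 each), a change of 0.72 ± 0.12 (limma adjusted p = 0.00208).

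Psmb6, the caspase-like subunit, changed least of the beta genes. Its levels were 7.09, 7.01, 6.65 and 7 on the LPS arrays, against 6.62, 6.51, 6.22 and 6.43 on the saline arrays. Here the margin was narrow: LPS replicate 3, at 6.65, stood just above saline replicate 1, at 6.62. The means were 6.94 ± 0.19 after LPS and 6.45 ± 0.17 after saline (SD, n = 4 each), a change of 0.49 ± 0.12 (limma adjusted p = 0.0123). With quantile normalization the change was 0.14 and missed the threshold (limma adjusted p = 0.0546). The structural subunits rose by 0.88 in Psmb3, 0.81 in Psmb4, 0.78 in Psmb2 and 0.6 in Psmb1.

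Interferon-inducible Psmb8, Psmb9 and Psmb10 take the places of Psmb5, Psmb6 and Psmb7 in the immunoproteasome, and they rose by 1.41 ± 0.16, 1.42 ± 0.18 and 1.41 ± 0.16 (n = 4 each, limma adjusted p = 0.000674, 0.000962 and 0.000692). Taken within each array, the increase of Psmb8 exceeded that of Psmb5 by 0.5, that of Psmb9 exceeded that of Psmb6 by 0.92, and that of Psmb10 exceeded that of Psmb7 by 0.69. For each of the 3 pairs the 4 LPS arrays and 4 saline arrays did not overlap in this difference (two-sided exact permutation p = 0.0286, which is the smallest that 70 splits can give, and 0.0286 after adjustment over the 3 pairs). This p says no more than that the groups were apart, and the genes were chosen with earlier results of these data known.

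The 6 ATPases form the ring of the 19S particle that unfolds substrates and pushes them into the core. All 6 rose, with a median of 0.77 (1.71-fold) and a range of 0.64 to 0.88. Psmc5 was the largest, with log2 levels of 4.62, 4.51, 4.19 and 4.61 on the LPS arrays, against 3.68, 3.68, 3.46 and 3.6 on the saline arrays. All LPS arrays lay above all saline arrays. The means were 4.48 ± 0.2 after LPS and 3.6 ± 0.1 after saline (SD, n = 4 each), a change of 0.88 ± 0.11 (limma adjusted p = 0.000994). Psmc1 rose by 0.81, Psmc4 by 0.78, Psmc6 by 0.77, Psmc3 by 0.69 and Psmc2 by 0.64.

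The 11 non-ATPase genes of the 19S particle encode its scaffold, its ubiquitin receptor and the lid that holds the deubiquitinase. All 11 rose, with a median of 0.62 (1.54-fold). Psmd13, a lid subunit, had the largest increase, with levels of 5.71, 5.54, 5.18 and 5.57 on the LPS arrays, against 4.76, 4.72, 4.46 and 4.55 on the saline arrays. The groups were well apart. The means were 5.5 ± 0.22 after LPS and 4.62 ± 0.14 after saline (SD, n = 4 each), a change of 0.88 ± 0.13 (limma adjusted p = 0.00139). Psmd14, the deubiquitinase that strips ubiquitin chains from committed substrates, rose by 0.86 ± 0.11 (limma adjusted p = 0.00105). Psmd2, the scaffold that docks shuttle factors, rose by 0.81, and Psmd1, the other large scaffold, by 0.61. Psmd4, an intrinsic ubiquitin receptor, rose by 0.6.

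Among the remaining lid genes Psmd12 rose by 0.79, Psmd3 by 0.74, Psmd7, the partner of Psmd14, by 0.62, Psmd11 by 0.6 and Psmd6 by 0.57. Psmd8 had the smallest change of all 37 genes. Its levels were 3.53, 3.44, 3.17 and 3.47 on the LPS arrays, against 3.18, 3.06, 2.98 and 2.95 on the saline arrays. LPS replicate 3 fell just under saline replicate 1, so these groups overlapped. The change of 0.36 ± 0.1 (limma adjusted p = 0.0172) lost its call with quantile normalization (0.15), with array median signal as a covariate (0.19) and without saline replicate 4 (0.33).

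**Figure D3:**
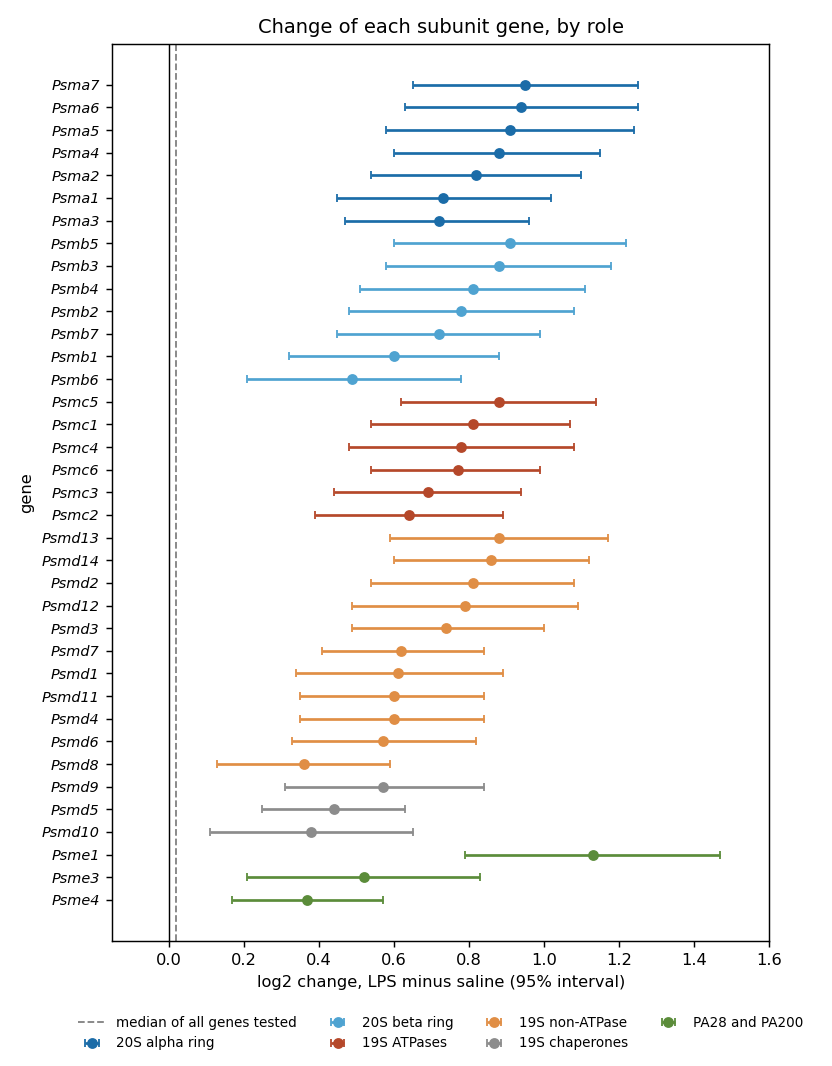
Log2 change, LPS minus saline, of each subunit gene (points) with its 95% interval (bars), grouped by role and coloured as in the legend; the dashed line marks the median of all genes tested, 0.02. No interval reaches 0, Psme1 stands furthest right at 1.13, and Psmd8, Psme4 and Psmd10 lie furthest left.

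Psmd5, Psmd9 and Psmd10 encode chaperones that help to assemble the ATPase ring and leave before the 26S particle is complete. All 3 rose, with a median of 0.44 (1.35-fold). Psmd9, the largest, had levels of 0.66, 0.58, 0.22 and 0.56 on the LPS arrays, against 0.1, -0.03, -0.15 and -0.19 on the saline arrays. The groups did not overlap. The means were 0.51 ± 0.19 after LPS and -0.07 ± 0.13 after saline (SD, n = 4 each), a change of 0.57 ± 0.12 (limma adjusted p = 0.00486). Psmd5 rose by 0.44 ± 0.08 (limma adjusted p = 0.00378).

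Psmd10, also called gankyrin, had levels of 2.66, 2.57, 2.2 and 2.58 on the LPS arrays, against 2.21, 2.21, 1.96 and 2.08 on the saline arrays. LPS replicate 3 fell below saline replicates 1 and 2, and the groups overlapped. Its change of 0.38 ± 0.12 (limma adjusted p = 0.0265) lost its call under more alternatives than that of any other of the 37 genes, 6 of 23: it missed the threshold without LPS replicate 1, 2 or 4 or without saline replicate 3 or 4 (0.33 to 0.37) and with array median signal as a covariate (0.13).

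The activators dock on the core in place of the 19S particle. Psme1 encodes the alpha subunit of PA28, a cap that interferon gamma induces and that is linked to the supply of peptides for MHC class I. It had the largest increase of all 37 genes. Its levels were 6.46, 6.31, 5.89 and 6.43 on the LPS arrays, against 5.29, 5.29, 4.92 and 5.07 on the saline arrays. Even LPS replicate 3 stood far above the highest saline array. The means were 6.27 ± 0.26 after LPS and 5.14 ± 0.18 after saline (SD, n = 4 each), a change of 1.13 ± 0.15 or 2.19-fold (limma adjusted p = 0.00107).

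Psme2, its partner, lies beside it on chromosome 14 (Psme1 at chr14:55578494-55581527 and Psme2 at chr14:55587440-55591101, GRCm38.p6). No probe bore its name, but both probes named for the related gene Psme2b list transcripts of Psme2 too. One of them, shown because it is the closest these arrays come to Psme2, lies on the minus strand at chr11:48759495-48759554 (mm9) and reads as follows.
Psme2b probe: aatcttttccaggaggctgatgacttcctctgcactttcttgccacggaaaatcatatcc

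The gene level named Psme2b came from the other probe, not the one printed. It was 7.38, 7.33, 6.84 and 7.41 on the LPS arrays, against 6.14, 6.13, 5.82 and 5.93 on the saline arrays. The groups were far apart, and the change was 1.23 ± 0.15 (n = 4 each, limma adjusted p = 0.00081). The printed probe changed by 1.2 ± 0.15 (limma adjusted p = 0.000985). Which of both genes supplied the signal cannot be told apart, so neither value is counted among the members. No probe of the 37 measured genes listed a second RefSeq gene.

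Psme3 encodes the gamma subunit of PA28, which forms a nuclear cap of its own and is not part of the interferon-induced complex. Its levels were 2.9, 2.93, 2.77 and 3.35 on the LPS arrays, against 2.58, 2.52, 2.28 and 2.5 on the saline arrays. The groups did not overlap, and LPS replicate 4 stood above the other LPS arrays. The means were 2.99 ± 0.25 after LPS and 2.47 ± 0.13 after saline (SD, n = 4 each), a change of 0.52 ± 0.13 (limma adjusted p = 0.0136), or 0.38 and not past the threshold with array median signal as a covariate.

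Psme4 encodes PA200, a large nuclear activator known for degrading acetylated histones in mouse testis. Its levels were 3.94, 3.83, 3.63 and 3.85 on the LPS arrays, against 3.54, 3.45, 3.44 and 3.35 on the saline arrays. The groups did not overlap. The means were 3.81 ± 0.13 after LPS and 3.45 ± 0.08 after saline (SD, n = 4 each), a change of 0.37 ± 0.09 (limma adjusted p = 0.0088), which missed the threshold with quantile normalization (0.12) and with array median signal as a covariate (0.24).

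Probes of the same gene did not all move with it. Of the 72 probes, 71 were bright enough to test. The 58 that list a coding RefSeq transcript, from all 37 genes, were all higher, with a median of 0.73 and a range of 0.36 to 1.13, where 29.6% of the other 22999 such probes were called higher and 20.2% lower. The remaining 13 probes, from 12 genes, list other transcripts only. Of these 3 were higher, 2 were lower and 8 were not called, with a median of -0.07, where 18% of 12424 such probes of other genes were called higher and 24.8% lower. This split was made after the values were seen, and the difference between both classes of probes was not tested. Of 21 members with several tested probes, 12 had all probes on the same side of 0, and among all 8204 such genes 70% did.

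**Figure D4:**
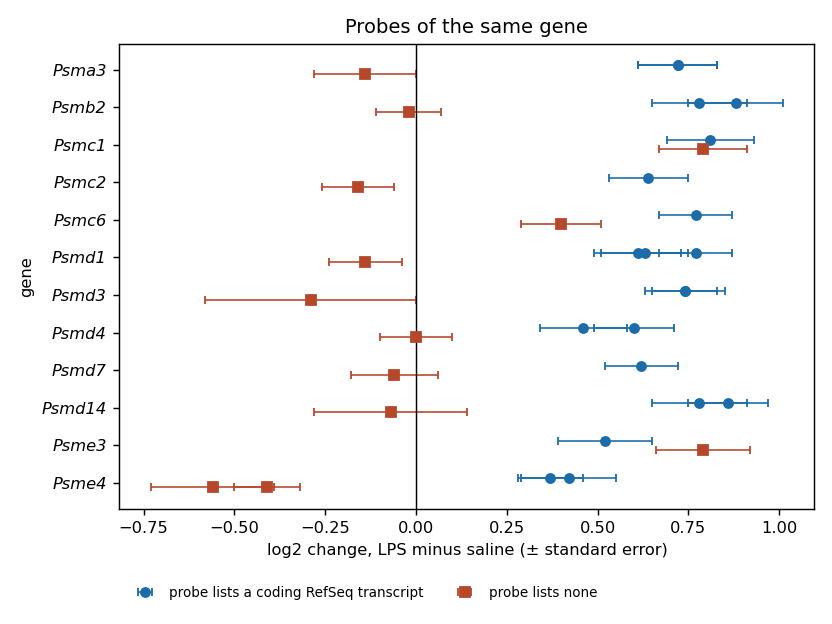
Log2 change, LPS minus saline (points), with its standard error (bars) for each probe of the 12 genes that have a probe listing no coding RefSeq transcript. Probes listing a coding RefSeq transcript (blue circles) lie between 0.37 and 0.88, while the others (red squares) lie around 0, apart from Psmc1, Psmc6 and Psme3 on the right and both Psme4 probes on the left.

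Psmb2, a structural beta subunit, shows the contrast within 1 stretch of the gene and was chosen for that after its values were seen. Its main probe crosses a splice junction: 60 bases align over chr4:126361432-126364275 (mm9, plus strand), a span of 2844 bases. Another probe lies inside the gap that the first one skips, at chr4:126362768-126362827. The probe across the junction rose by 0.78 ± 0.13 (limma adjusted p = 0.00246), and the probe in the gap changed by -0.02 ± 0.09 (limma adjusted p = 0.883, n = 4 each). Both sequences are given 5′ to 3′.
Psmb2 probe across the junction: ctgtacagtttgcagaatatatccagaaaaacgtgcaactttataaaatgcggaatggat
Psmb2 probe in the gap: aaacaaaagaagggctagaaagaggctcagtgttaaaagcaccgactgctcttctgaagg

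Psme4 was the member with probes called in opposite directions. A probe of its coding transcript, at chr11:30756055-30756114 (mm9, plus strand), rose by 0.42 ± 0.13 (limma adjusted p = 0.0295), beside the main probe at 0.37. The probes at chr11:30739112-30739171 and chr11:30729296-30729355, on the same strand and listing other transcripts, changed by -0.56 ± 0.17 (limma adjusted p = 0.0263, well above background on 2 of 4 LPS arrays) and -0.41 ± 0.09 (limma adjusted p = 0.00814). Both lower calls were lost with scaling by array medians (-0.34 and -0.19) and after normexp background correction, where the changes were 0.05 and 0.03 with the offset of 50 and -0.17 for each without it. The mean of all 4 Psme4 probes changed by -0.04, so the direction of this gene rests on the choice of probe. The 3 sequences are shown because the call turns on them.
Psme4 coding transcript probe: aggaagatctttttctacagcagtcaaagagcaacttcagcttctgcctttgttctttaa
Psme4 other transcript, first probe: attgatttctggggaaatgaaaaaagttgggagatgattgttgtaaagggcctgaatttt
Psme4 other transcript, second probe: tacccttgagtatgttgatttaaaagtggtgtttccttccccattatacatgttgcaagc

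The genes are scattered over 15 chromosomes, with 8 of 38 on chromosome 11 and 5 each on chromosomes 14 and 2 (GRCm38.p6). RefSeq promoter windows of that build, from 250 bases before to 50 after the start, were at hand for 32 members in 35 windows. The interferon-stimulated response core (GAAA, any 2 bases, GAAA), searched like the other motifs on both strands, occurred in 4 of 35 windows (11.4%), those of Psmb3, Psmd4, Psmd9 and Psme1, against 3.44% of all 32851 windows. The antioxidant response core TGACNNNGC occurred in 6 of 35 (17.1%), those of Psmb5, Psmb6, Psmc6, Psmd12, Psmd9 and Psme4, against 12.4% of all windows. A CCAAT box stood in 12 of 35 windows (34.3%, against 37.4% of all) and TATAAA in 3 (8.57%, against 13.6%). Such matches describe the letters of these windows and are not binding sites.

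The windows of Psme1, the gene with the largest increase, and of Psmb5, the constitutive catalytic subunit with the largest increase, are shown from 250 bases before the start to 30 after it, with the motif in capitals. In Psme1 (chr14:55578244-55578523, GRCm38.p6, plus strand) the response core lies on the opposite strand from base 10 after the start, so its reverse complement is in capitals. In Psmb5 (chr14:54617966-54618245, GRCm38.p6, minus strand) TGACNNNGC begins at base -47 on the strand of the gene.
Psme1 promoter: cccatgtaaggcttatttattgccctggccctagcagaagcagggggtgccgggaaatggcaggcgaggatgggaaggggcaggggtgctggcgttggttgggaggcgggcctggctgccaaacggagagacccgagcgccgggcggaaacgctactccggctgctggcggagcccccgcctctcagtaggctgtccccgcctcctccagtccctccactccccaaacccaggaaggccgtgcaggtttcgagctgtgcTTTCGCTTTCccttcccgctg
Psmb5 promoter: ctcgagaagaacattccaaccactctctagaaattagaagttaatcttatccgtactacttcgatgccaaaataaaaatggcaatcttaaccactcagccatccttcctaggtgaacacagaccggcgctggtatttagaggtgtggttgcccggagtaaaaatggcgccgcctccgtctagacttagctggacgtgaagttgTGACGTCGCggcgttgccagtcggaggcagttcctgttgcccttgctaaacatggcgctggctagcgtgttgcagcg

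Genes that build, feed or regulate the proteasome moved with its subunits in part. Of 34 measured genes on a list of such partners, 25 were higher, 1 was lower and 8 were not called, with a median of 0.48, where 27.8% of all genes were called higher and 21.5% lower. That list also holds 4 measured inducible or tissue-specific subunits, of which 3 were higher: Psmb8, Psmb9 and Psmb10, given above. Among the assembly factors and the inhibitor of the core, 5 of 6 genes rose. They included Psmg4 (0.74 ± 0.13, limma adjusted p = 0.00314) and Psmg3 (0.71 ± 0.12, limma adjusted p = 0.00265), chaperones that help to build the alpha ring, and Pomp (0.73 ± 0.13, limma adjusted p = 0.00308), which guides the beta ring and its maturation. Of 8 measured proteins associated with the 26S particle 5 rose and 1 fell. The deubiquitinase Uchl5 rose by 0.91 ± 0.13 (limma adjusted p = 0.00124) and the small lid subunit Sem1 by 0.58 ± 0.12 (limma adjusted p = 0.00642). Usp14, the other deubiquitinase that docks on the particle, rose by 0.67 ± 0.11 (limma adjusted p = 0.00237), or 0.14 and not past the threshold as the mean of its probes. Akirin2, which carries proteasomes into the nucleus of human cells, fell by 0.23 ± 0.08 (limma adjusted p = 0.0415, n = 4 each). Its change was -0.48 with quantile normalization and -0.38 when the percentile was taken over well-detected probes alone, both past the threshold, but -0.01 with scaling by array medians, and it lost its call with no filter on dim probes (-0.23) and without LPS replicate 2 or 4 or saline replicate 1, 2 or 4 (-0.22 to -0.19).

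Shuttle factors, which carry ubiquitinated proteins to the particle, rose in 3 of 5 genes, with Rad23b at 0.6, Ubqln1 at 0.48 and Ubqln4 at 0.25, which was 0.1 and not past the threshold when the percentile was taken over well-detected probes alone. Of the transcription factor genes, Nfe2l2, which drives the antioxidant response, rose by 0.6 ± 0.1 (limma adjusted p = 0.00256). Nfe2l1, which restores subunit genes when the proteasome is inhibited, changed by 0.23 ± 0.06 (limma adjusted p = 0.0194), but by 0.01 with quantile normalization and 0.07 when the percentile was taken over well-detected probes alone, neither past the threshold. Its call was also lost without LPS replicate 1 or 4 or saline replicate 4 (0.2 to 0.23) and with array median signal as a covariate (0.18).

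Of 4 genes for ubiquitin and its activating enzymes, 3 were higher. The activating enzyme Uba1 rose by 0.57 ± 0.1 (limma adjusted p = 0.00237) and the fusion gene Rps27a, which encodes ubiquitin joined to a ribosomal protein, by 0.4 ± 0.1 (limma adjusted p = 0.0132). Uba6, a second activating enzyme, rose by 0.26 ± 0.08 (limma adjusted p = 0.0301), but by 0.1 and not past the threshold with quantile normalization. Its call was also lost without LPS replicate 1, 2 or 4 or saline replicate 2, 3 or 4 (0.23 to 0.27). The segregase, which pulls ubiquitinated proteins out of complexes and membranes ahead of the proteasome, rose in 4 of 4 measured genes, with Vcp at 0.49, Nploc4 at 0.48 and Ufd1 at 0.43, although Ufd1 was 0.22 and not past the threshold with array median signal as a covariate.

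**Figure D5:**
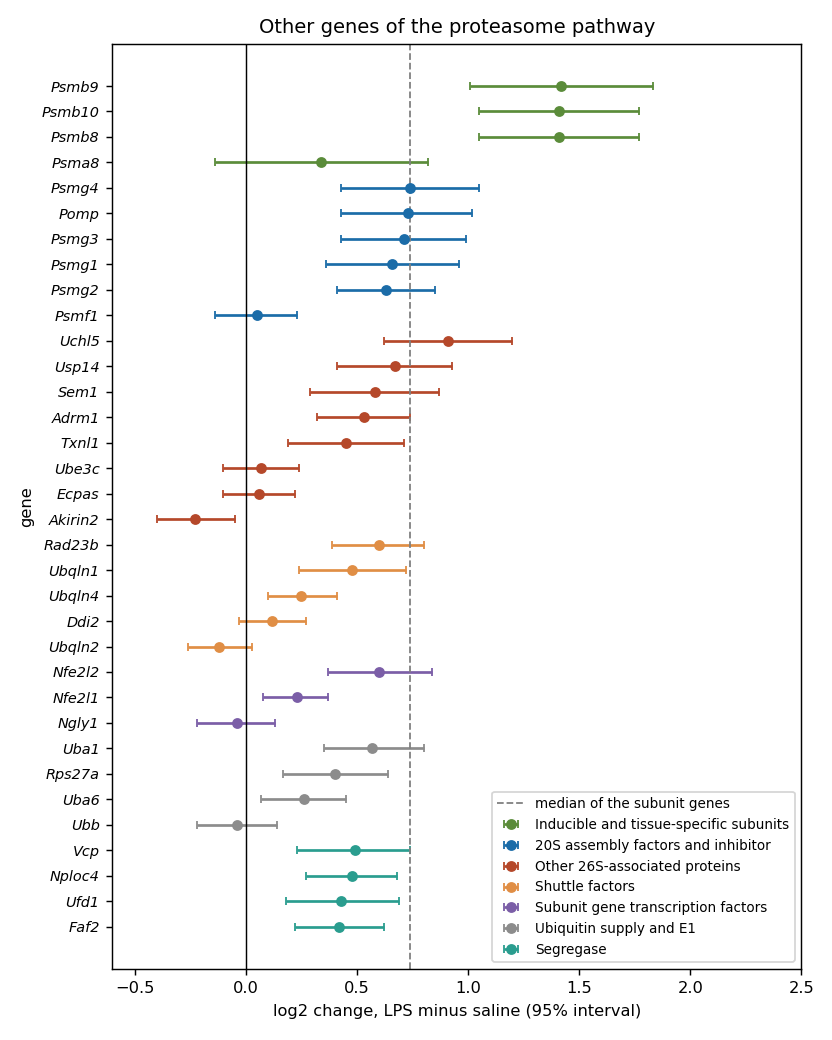
Log2 change, LPS minus saline (points), with its 95% interval (bars) for other genes of the proteasome pathway, grouped by role and coloured as in the legend; the dashed line is the median of the constitutive subunit genes, 0.74. The inducible Psmb8, Psmb9 and Psmb10 lie near 1.41, most assembly factors near the dashed line, and Akirin2 below 0 at -0.23.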

How the data were processed

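RNA of CD11b+ brain cells (50 ng, Cy3-labelled, per the labels) was hybridised to 8 one-colour Agilent arrays on 1 slide. The submitters' processing notes name Agilent Feature Extraction 12.0.3.1. The scanner files, as deposited, give intensity. Per the file headers, Feature Extraction subtracted a spatially detrended background, put surrogates in place of dim signals and did not scale arrays to each other. A table of log2 values that the authors deposited (column medians -0.07 to 0.08, correlation with the scanner values 0.989 to 0.995) served as an alternative. The labels do not say how it was scaled and centred.

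Control spots and outlier spots were left out, spots of a probe were averaged, and levels are the log2 of the processed signal less the 75th percentile of the array. A probe was kept if well above background on 4 or more of the 8 arrays, and a gene was its probe with the highest mean signal (22509 genes). The test was limma 3.58.1 (lmFit, eBayes; R 4.3.3), two-sided, with p-values adjusted by Benjamini and Hochberg over all genes (threshold 0.05), and was tested on simulated data. Names came through the RefSeq table of GRCm38.p6, while probe coordinates are mm9, per the file headers. Values on every array are given for the largest change of each role group, the catalytic subunits, the activators and genes with probes called both ways; of the partner genes, up to 3 risen and 3 fallen per role were named. A few partner genes are not reported here. Psmd8, Psmd10 and Psmb2 were added after their values were seen. The members and lists were chosen with earlier results of these data known. Labels give no replicate numbers, and those used only name tubes in accession order. Alternatives covered scaling, background, filter, probe choice, variance model, array weights, slide position, a signal covariate, the authors' values and leaving out arrays. Plots used matplotlib 3.10.9 (Python 3.11.15).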

Additional observations from a re-analysis of the deposited data

Results flagged for a closer look

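In 4 of 74 groups of 4 arrays tested (37 genes, LPS and saline), 1 array stood apart from the others of its group by Dixon's gap ratio, the gap to the nearest array over the whole range. Chance flags about 1 in 20 groups, and 4 of 74 is 5.41%. LPS replicate 3 was below the other LPS arrays for Psmb7 (3.22 against 3.64 for the nearest LPS array, ratio 0.87), for Psmb4 (6.09 against 6.51, ratio 0.846) and for Psma7 (5.13 against 5.59, ratio 0.836). Saline replicate 3 was below the other saline arrays for Psma3 (4.8 against 4.98, ratio 0.9). The same arrays had the highest median signal of their groups, 17.3 on LPS replicate 3 and 21.5 on saline replicate 3. Both lay in the same slide column and had the highest neuron, oligodendrocyte and endothelial marker levels of their groups. The part of any of these in the gaps was not tested.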

How the results depend on the processing

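Of the 37 genes called higher, 32 were called under all 23 alternatives, and 0 were called lower under any of them. The median change of the 37 genes was 0.74, but 0.96 with scaling by array medians, 0.46 with quantile normalization and 0.52 with array median signal as a covariate. The count of members higher was 34 with quantile normalization, 33 with the covariate and 36 with the mean of a gene's probes, where Psme4 turned to -0.04. In these settings 25.2%, 18.4% and 25.7% of all genes were higher. Leaving out each array in turn gave 35 to 37 members higher, 0 lower, a median of 0.69 to 0.84, and 8730 to 13262 genes changed, against 11104 with every array included. The share of all genes called higher then ran from 21.9% to 32.5%. Over all genes 6267 were higher and 4837 lower, against 6994 and 2619 with scaling by array medians and 4851 and 7241 when the percentile was taken over well-detected probes alone (those above background on 8 of 8 arrays), with the median of all genes at 0.02, 0.24 and -0.13. Of the 34 partner genes, 25 higher and 1 lower in the reported values, 25 were higher and 0 lower with scaling by array medians, 23 and 3 with quantile normalization, 22 and 4 with the percentile over well-detected probes, and 21 and 1 with array median signal as a covariate. Of all genes, 31.1%, 25.2%, 21.6% and 18.4% were higher in these settings, in the same order. The labels give no replicate numbers that could pair samples. Slide columns hold 1 LPS and 1 saline array each. With column as a block 37 members were higher, against 33.3% of all genes, 13620 genes changed and the median of the members was 0.74. Of the 13 probes that list no coding RefSeq transcript, 2 were lower in the reported values and 0 with scaling by array medians, with quantile normalization or after normexp background correction, and the cause was not tested. With 4 arrays a group, their number limits all these values.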
